A study of Mus musculus with 4 samples.

Results

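The miR-17-92 cluster is a group of microRNAs (miRNAs) cut from 1 long non-coding transcript, Mir17hg, and its products were followed here in the plasma of mice with acute myocardial infarction (AMI) and of Sham-operated mice. The 7 mature miRNAs, mmu-miR-17-5p, mmu-miR-17-3p, mmu-miR-18a-5p, mmu-miR-19a-3p, mmu-miR-20a-5p, mmu-miR-19b-3p and mmu-miR-92a-3p (below without the species prefix mmu), were taken by name from the deposited table, in which all 7 were found among 921 miRNA entries. The members were defined by their place in the genome and not by a measured value. Earlier results of these data were known when they were chosen. Small RNA was sequenced in 4 plasma libraries, 2 from AMI mice (AMI 1 and AMI 2) and 2 from Sham mice (Sham 1 and Sham 2), and values are given in that order within each group. The mice were male C57BL/6 animals of 8 weeks. In AMI mice the left anterior descending coronary artery was tied off permanently, and Sham mice had the same anaesthesia, ventilation and opening of the chest without the ligation. The sources used here do not say how long after surgery this plasma was drawn, or whether each library came from 1 mouse or from several. The p-values below therefore measure the spread between libraries, which may be technical.

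A miRNA is cut from a hairpin in a longer RNA, and either arm of the hairpin (5p or 3p) can be loaded into an Argonaute protein. Loaded miRNAs repress messenger RNAs that match the seed, which is bases 2 to 8 of the miRNA. Mir17hg is transcribed under the control of Myc and is known for driving cell growth and survival, in lymphocytes and other blood cells, in the developing heart and lung, and in tumours. The miR-17 and miR-20a products repress the pro-apoptotic Bcl2l11 (Bim), miR-18a represses the matrix gene Ctgf, and miR-92a restrains the growth of vessels by endothelial cells. All of these hairpins sit in the same transcript, whose copies each carry every hairpin once.

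The 6 hairpins lie within 836 bases of chromosome 14 (GRCm38, chr14:115043671-115044506, plus strand), in the order Mir17, Mir18, Mir19a, Mir20a, Mir19b-1 and Mir92-1. All 6 fall inside exon 2 of the only annotated transcript of Mir17hg in GENCODE M21 (chr14:115042879-115046727), a long intergenic non-coding RNA. The mature sequences below, from RefSeq (GRCm38.p6), are shown because the 7 members fall into 5 seed groups. The seed is in capitals, and members are in genome order.
miR-17-5p: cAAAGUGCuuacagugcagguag
miR-17-3p: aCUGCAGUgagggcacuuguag
miR-18a-5p: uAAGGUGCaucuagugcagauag
miR-19a-3p: uGUGCAAAucuaugcaaaacuga
miR-20a-5p: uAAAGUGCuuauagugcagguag
miR-19b-3p: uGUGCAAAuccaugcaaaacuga
miR-92a-3p: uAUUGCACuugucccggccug
The members miR-17-5p and miR-20a-5p share the seed AAAGUGC, and miR-19a-3p and miR-19b-3p share GUGCAAA. Counting positions from 1 at the 5′ end, miR-19a-3p differs from miR-19b-3p by the single substitution U11C, and miR-17-5p differs from miR-20a-5p by C1U and C12U. The mature sequences of miR-19b-3p and miR-92a-3p are also encoded, without a difference, by Mir19b-2 (mature sequence at chrX:52741991-52742013, minus strand) and Mir92-2 (chrX:52741854-52741874, minus strand) in the paralogous miR-106a-363 cluster. Their counts are therefore the sum of 2 loci, while the other 5 members have 1 locus each in RefSeq.

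The libraries held 9016139 and 11461361 unique molecular identifiers (UMIs) in the AMI pair, with 7460687 and 4842247 in the Sham pair. A UMI is a random tag put on each cDNA before amplification, so that PCR copies of 1 molecule are counted once. Reads per UMI over all entries were 1.16 to 1.28, with the highest value in Sham 2, and those of the 7 members were 1.09 to 1.32. As a check of the labels, all 4 heart muscle miRNAs examined (miR-1a-3p, miR-133a-3p, miR-208a-3p and miR-499-5p) were higher in AMI plasma. All 7 red blood cell miRNAs examined were counted in every library, which does not bear on the labels of the groups. Levels are given in CPM, which are UMI counts per 1000000 of the library total after scaling between libraries by the trimmed mean of M-values (TMM). AMI and Sham were compared with the quasi-likelihood test of edgeR over the 772 miRNAs that passed its filter on low counts, and an adjusted p under 0.05 was the threshold.

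The 7 members differed in level by 144-fold to 211-fold within a library, where the highest of them also sums the copy on the X chromosome. The most abundant, miR-92a-3p, had 92669 and 79263 UMIs in the AMI pair, with 92571 and 51555 in the Sham pair. The least abundant, miR-17-3p, had 600 and 549 UMIs in AMI plasma versus 586 and 244 in Sham plasma. It is the less abundant arm of the Mir17 hairpin. The ratio of the highest to the lowest member was thus 154 and 144 in AMI plasma versus 158 and 211 in Sham plasma. On the log2 scale this span was 7.27 and 7.17 in AMI and 7.30 and 7.72 in Sham plasma, a mean difference of −0.29 that was smaller than the gap between the Sham libraries. The lowest count of any member, 244 UMIs, has an exact 95% Poisson interval of 214 to 277, which covers counting error only, as do all such intervals here. The order of the members was miR-92a-3p, miR-20a-5p, miR-19b-3p, miR-17-5p, miR-19a-3p, miR-18a-5p and miR-17-3p in AMI 1, AMI 2 and Sham 1. In Sham 2 the only change was that miR-19b-3p stood above miR-20a-5p.

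The order of the levels did not follow the order of the hairpins, as the plot of levels by library shows. Among the 7 members, the lowest, miR-17-3p, came from the first hairpin and the highest from the last. The more abundant arm of the first hairpin, miR-17-5p, stood above miR-19a-3p and miR-18a-5p in every library. miR-20a-5p stood above miR-19b-3p, whose hairpin comes after it, in 3 of 4 libraries. In mean CPM miR-92a-3p ranked 22nd of the 772 tested miRNAs, miR-19b-3p 76th and miR-20a-5p 79th. Lower came miR-17-5p at 117, miR-19a-3p at 149, miR-18a-5p at 164 and miR-17-3p at 217. Together the 7 members made up 1.42% (95% Wilson interval 1.42 to 1.43%) and 1.05% (1.04 to 1.05%) of miRNA UMIs in AMI 1 and AMI 2. In Sham 1 and Sham 2 they made up 1.65% (1.64 to 1.66%) and 1.34% (1.33 to 1.35%). Of the cluster's own UMIs, miR-92a-3p took 72.7% (72.5 to 73.0%) and 66.3% (66.1 to 66.6%) in the AMI libraries and 75.4% (75.1 to 75.6%) and 79.5% (79.2 to 79.8%) in the Sham libraries. Its share was lower in both AMI libraries than in either Sham library. For comparison, the groups did not overlap for 72.2% of the ratios between miRNAs with at least 100 UMIs in every library. The intervals cover counting error only, and those of AMI 1 and AMI 2 did not meet each other either. Levels of different miRNAs also carry the efficiency with which each sequence was captured in a library, which was not measured.

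**Figure D1:**
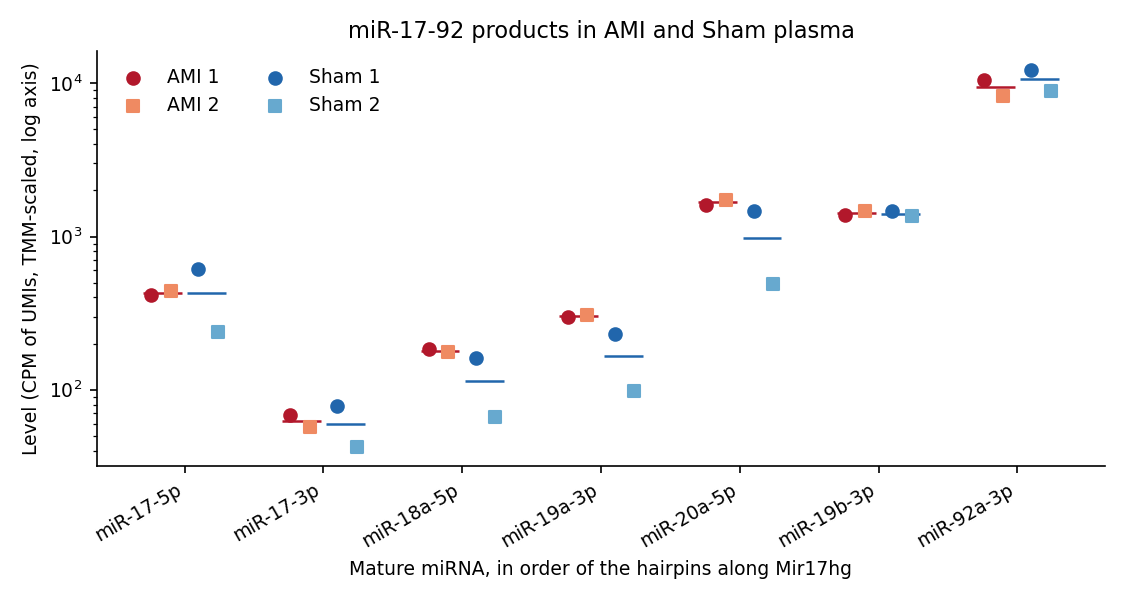
Level of each member in each library, in CPM of UMIs on a log axis, with the miRNAs in the order of their hairpins along Mir17hg. Points are libraries and bars are group means (n = 2 libraries each). The AMI points lie within 0.36 of each other on the log2 scale for every member, while Sham 2 lies below the other 3 libraries for miR-17-5p, miR-17-3p, miR-18a-5p, miR-19a-3p and miR-20a-5p, but near them for miR-19b-3p.

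The question of the comparison was whether these miRNAs differ in plasma after AMI. None of the 7 members passed the test, against 27.5% of all tested miRNAs. At an unadjusted p under 0.05 the count was also 0 of 7 (39.2% of all tested miRNAs), and DESeq2 called 0 of 7 (32.5%). The median log2 fold change of the 7 members was 0.06, beside 0.04 over all tested miRNAs. The groups did not overlap for 3 of the 7, miR-18a-5p, miR-19a-3p and miR-20a-5p, each higher in both AMI libraries, where 65.4% of all tested miRNAs did not overlap in either direction and 35.0% were higher in both AMI libraries.

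The pair with the miR-17 seed gave different values. miR-20a-5p had 1616 and 1737 CPM in the AMI pair, with 1467 and 491 CPM in the Sham pair. Both AMI libraries lay above both Sham libraries, with Sham 1 close to the AMI libraries and Sham 2 far below them. Its mean level was 1676 ± 85.6 CPM in AMI and 979 ± 690 CPM in Sham plasma (SD, n = 2 each), a log2 fold change of 0.78 (standard error 0.47, 95% interval −0.26 to 1.81, adjusted p = 0.246 from edgeR). miR-17-5p, which differs from it at 2 bases outside the seed, had 414 and 442 CPM in AMI plasma versus 613 and 239 CPM in Sham plasma. The AMI libraries lay between the Sham libraries, and the log2 fold change was 0.00 (standard error 0.44, −0.96 to 0.97, adjusted p = 0.995 from edgeR). Its sister arm miR-17-3p, with a seed of its own, had 68.6 and 57.0 CPM in AMI plasma versus 77.8 and 42.2 CPM in Sham plasma. This arm too lay between the Sham libraries, at a log2 fold change of 0.06 (standard error 0.40, −0.81 to 0.94, adjusted p = 0.953 from edgeR). Sham 2 was the lowest library for all 3 of these miRNAs.

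The Ctgf repressor miR-18a-5p had 184 and 175 CPM in the AMI pair, with 162 and 66.4 CPM in the Sham pair. The AMI libraries were above both Sham libraries, but the gap between the Sham libraries was wider than that between AMI and Sham 1. The log2 fold change was 0.65 (standard error 0.45, −0.32 to 1.63, adjusted p = 0.307 from edgeR).

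The miR-19 products, which share the seed GUGCAAA, gave different values although they differ by 1 base (the difference in fold change was not tested). How reads with a mismatch were assigned is not given in the sources used here, so their counts may share reads. miR-19a-3p had 299.6 and 307 CPM in AMI plasma versus 232 and 98.1 CPM in Sham plasma, with no overlap between the groups. Its mean level was 303 ± 4.91 CPM in AMI and 165 ± 94.7 CPM in Sham plasma (SD, n = 2 each). This is a log2 fold change of 0.88 (standard error 0.44, −0.08 to 1.83, adjusted p = 0.159 from edgeR), the highest of the 7 members. miR-19b-3p, a reference miRNA for qRT-PCR in the study, had 1388 and 1457 CPM in AMI plasma versus 1463 and 1361 CPM in Sham plasma. The 4 libraries were close, the groups overlapped, and the log2 fold change was 0.01 (standard error 0.34, −0.74 to 0.76, adjusted p = 0.984 from edgeR). The study picked this miRNA for its stability in these libraries, so its small spread is not independent evidence of a constant level.

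The last product of the transcript, miR-92a-3p, had 10589 and 8223 CPM in the AMI pair, with 12286 and 8915 CPM in the Sham pair. The groups overlapped, and the log2 fold change was −0.17 (standard error 0.38, −1.0 to 0.65, adjusted p = 0.786 from edgeR). The intervals of all 7 members include no change, and those of miR-18a-5p, miR-19a-3p and miR-20a-5p reach past a log2 change of 1.6.

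The calls depended on which Sham library was kept. Without Sham 1, so that Sham 2 alone stood for the Sham mice, 4 of 7 members passed the test, all higher in AMI, beside 36.6% of all miRNAs tested in that fit (19.8% higher). The log2 fold changes were then 0.83 for miR-17-5p (adjusted p = 0.0290 from edgeR), 1.43 for miR-18a-5p (0.000335), 1.62 for miR-19a-3p (2.44e-05) and 1.77 for miR-20a-5p (6.29e-06). Without Sham 2, 0 of 7 passed (32.0% of all tested), and miR-17-5p, miR-18a-5p, miR-19a-3p and miR-20a-5p stood at −0.55, 0.12, 0.36 and 0.16. Without AMI 1 and without AMI 2 the members called were also 0 of 7, beside 10.1% and 11.7% of all tested miRNAs. In each of these fits the lone library of a group was assumed to vary as the other group did. Between Sham 1 and Sham 2 the members differed by 0.10 to 1.58 on the log2 scale (median 1.24), and 5 of 7 differed by more than the median of 0.53 over the 283 miRNAs with at least 100 UMIs in every library. Between AMI 1 and AMI 2 they differed by 0.03 to 0.36 (median 0.09), where the same 283 miRNAs had a median of 0.27.

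Some blood cell miRNAs also differed between the Sham libraries. Red blood cells hold large amounts of miR-451a, miR-144 and miR-486, and the summed level of the 7 red cell miRNAs was 142398 and 122134 CPM in the AMI pair, with 183303 and 100302 CPM in the Sham pair. None of the 7 passed the edgeR test, beside 27.5% of all tested miRNAs, and none was at 0 in any library. Sham 2 was the lowest library for 5 of these 7, among them miR-144-3p (4313 and 4036 CPM in AMI plasma, 5703 and 1207 CPM in Sham plasma), but not for miR-451a and miR-144-5p. The red cell miRNA miR-451a had 23875 and 18732 CPM in AMI plasma versus 68914 and 32854 CPM in Sham plasma, so that it was lower in both AMI libraries (log2 fold change −1.26, edgeR adjusted p = 0.0536). With DESeq2, which called 32.5% of all tested miRNAs, the adjusted p of miR-451a was 0.0181, so that its call depends on the tool. These examples were picked after their values were seen. The summed level of the 6 leukocyte and platelet miRNAs was 46325 and 50376 CPM in AMI plasma versus 55179 and 40962 CPM in Sham plasma. Of these 6, miR-155-5p alone passed the edgeR test, with a lower level in AMI, beside 12.7% of all tested miRNAs that were lower. None of the 6 was at 0. Sham 2 was the lowest library for 1 of these 6, and miR-223-3p, the granulocyte miRNA, had 25601 and 28001 CPM in AMI plasma versus 10091 and 15370 CPM in Sham plasma. The adjusted p of miR-223-3p was 0.0587 from edgeR and 0.0223 from DESeq2, so that its call depends on the tool as well. Both sums were lowest in Sham 2 although single miRNAs were not, and their part in the low values of the cluster's members there was not tested. A lower sum in Sham 2 than in Sham 1 was not limited to blood cells. The heart muscle miRNAs summed to 11366 CPM in Sham 1 and 5817 CPM in Sham 2, and the endothelial miR-126a arms to 15472 and 13703 CPM. The hepatocyte miR-122 arms went the other way, with 5852 CPM in Sham 1 and 17434 CPM in Sham 2. In plasma, fewer cells of a type and less RNA released per cell cannot be told apart.

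Ratios between members were then taken within each library, where they need no scaling between libraries. With 2 libraries against 2, an exact permutation test cannot give a two-sided p below 0.333, so these ratios are described without a test. Relative to miR-19b-3p, miR-19a-3p was at 0.216 and 0.210 in the AMI pair, with 0.159 and 0.0720 in the Sham pair. miR-20a-5p was at 1.16 and 1.19 times miR-19b-3p in AMI plasma versus 1.00 and 0.361 times in Sham plasma. For miR-18a-5p the ratio was 0.132 and 0.12 in AMI plasma versus 0.110 and 0.0488 in Sham plasma. All 3 were higher in both AMI libraries, by a mean of 1.0 (miR-19a-3p), 0.97 (miR-20a-5p) and 0.78 (miR-18a-5p) on the log2 scale. Of all pairs of abundant miRNAs, 72.2% did not overlap. Without Sham 2 the differences were 0.43, 0.23 and 0.19 in the same order, and without Sham 1 they were 1.56, 1.71 and 1.37. With all libraries they are close to the SD between the Sham libraries, which was 0.81 for miR-19a-3p, 1.04 for miR-20a-5p and 0.83 for miR-18a-5p.

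For the other 3 members the ratio to miR-19b-3p overlapped between the groups. miR-92a-3p was at 7.63 and 5.64 times miR-19b-3p in the AMI pair, with 8.40 and 6.55 times in the Sham pair. For miR-17-5p the ratio was 0.298 and 0.303 in AMI plasma versus 0.419 and 0.176 in Sham plasma. The AMI libraries were alike here and the Sham libraries lay on either side of them. For miR-17-3p the ratio was 0.0494 and 0.0391 in AMI plasma versus 0.0532 and 0.0310 in Sham plasma.

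**Figure D2:**
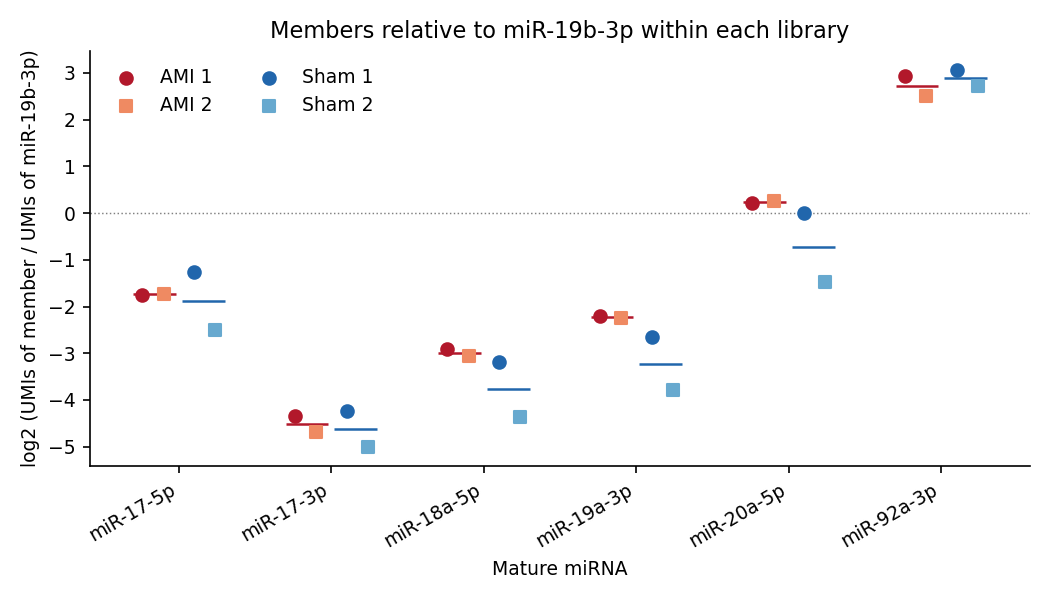
Log2 ratio of the UMIs of each member to those of miR-19b-3p in the same library. Points are libraries and bars are group means (n = 2 each), and 0 marks equal counts. For miR-18a-5p, miR-19a-3p and miR-20a-5p both AMI points lie above both Sham points, by a mean of 0.78, 1.0 and 0.97, and Sham 2 is the lowest library for 5 of the 6 members shown.

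Over all 21 pairs of members, the spread of the ratios was compared within and between sets of members. The 3 products of the neighbouring hairpins Mir18, Mir19a and Mir20a kept nearly constant ratios to each other, with an SD of the log2 ratio over the 4 libraries of 0.13 to 0.18. miR-19a-3p, for example, was at 0.185 and 0.177 times miR-20a-5p in AMI plasma versus 0.158 and 0.200 times in Sham plasma. The products of the last hairpins, miR-19b-3p and miR-92a-3p, had an SD of 0.25 to each other, and the arms of Mir17 had 0.24. Between the first and second of these sets the SD was 0.66 to 0.83. Between the second set and the arms of Mir17 it was 0.24 to 0.52, so those were not clearly set apart from each other. Between the first set and the arms of Mir17 the SD was 0.37 to 0.59, a range that overlaps the one before. For comparison, the median SD over all 39903 pairs of the 283 abundant miRNAs was 0.82, and 10% of those pairs were at or below 0.35. The groups did not overlap for 14 of the 21 member pairs, beside 72.2% of all pairs of abundant miRNAs, so this count is near the background. The 21 pairs share the same 7 counts per library and are not independent of each other. These sets were formed after the values were seen.

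**Figure D3:**
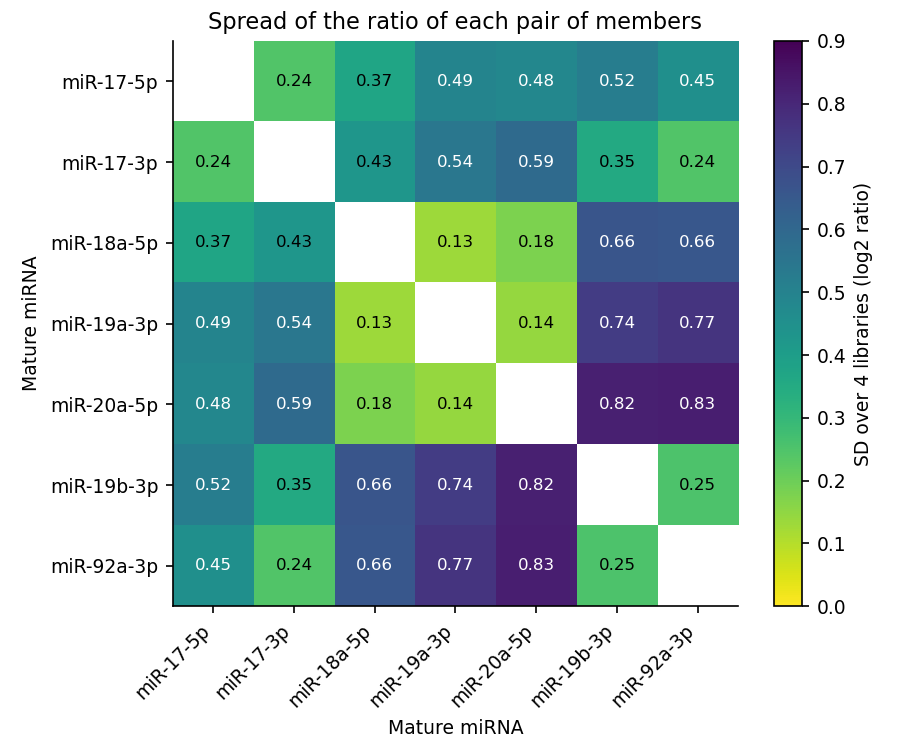
Spread of the log2 ratio of each pair of members, as the SD over the 4 libraries, with members in genome order on both axes. The 3 pairs among miR-18a-5p, miR-19a-3p and miR-20a-5p have the lowest values (0.13 to 0.18), and the pairs of these 3 with miR-19b-3p and miR-92a-3p have the highest (0.66 to 0.83).

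A ratio that involves miR-17-5p separated the groups in a narrower way. miR-17-5p was at 0.256 and 0.254 times miR-20a-5p in the AMI pair, with 0.418 and 0.487 times in the Sham pair. Here the replicates were close in both groups, with an SD of 0.01 between the AMI libraries and of 0.16 between the Sham libraries on the log2 scale, and the mean difference was −0.82. The ratio of miR-17-5p to miR-19a-3p was 1.38 and 1.44 in AMI plasma versus 2.64 and 2.44 in Sham plasma, a mean log2 difference of −0.85. Both ratios were lower in AMI plasma in both libraries, by more than the spread within either group. The ratio of miR-17-5p to miR-18a-5p was also lower in both, with a mean log2 difference of −0.63. A lack of overlap was common, at 72.2% of all pairs of abundant miRNAs and 14 of the 21 member pairs. These ratios were singled out after their values were seen.

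Each of the 6 hairpins also gave counts for its other arm, which was lower in every library, by 1.11-fold at the least (Mir18 in Sham 2). The other arms of Mir19a, Mir20a, Mir19b-1 and Mir92-1 had between 6 and 31 UMIs per library, so their ratios carry a large counting error. For Mir19b-1 and Mir92-1 the more abundant arm also sums the locus on the X chromosome, so their ratios are not those of a single hairpin. The Mir17 and Mir18 hairpins gave at least 244 UMIs from either arm in every library and are shown whole, from RefSeq (GRCm38.p6), with the 2 mature arms in capitals.
Mir17 (chr14:115043671-115043754): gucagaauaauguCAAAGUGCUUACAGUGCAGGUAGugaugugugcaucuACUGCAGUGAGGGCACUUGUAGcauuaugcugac
Mir18 (chr14:115043851-115043946): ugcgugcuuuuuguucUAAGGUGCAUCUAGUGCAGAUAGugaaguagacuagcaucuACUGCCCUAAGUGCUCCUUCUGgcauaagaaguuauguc
From Mir17, miR-17-5p was at 6.03 and 7.75 times miR-17-3p in AMI plasma versus 7.88 and 5.67 times in Sham plasma, with full overlap. From Mir18, miR-18a-5p was at 4.25 and 5.90 times miR-18a-3p in AMI plasma versus 1.82 and 1.11 times in Sham plasma. The lead of the 5p arm of Mir18 was thus larger in both AMI libraries, with a mean log2 difference of 1.82 between the groups. Over the 192 miRNA names with both arms tested and counted in every library, the median size of this difference was 0.79, 10% reached 2.16, and the groups did not overlap for 64.6%.

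The arms of Mir18 stood on opposite sides of 0, and neither passed the edgeR test. miR-18a-3p had 378 and 286 UMIs in the AMI pair, with 667 and 347 in the Sham pair, or 36.4 ± 9.56 CPM in AMI and 74.3 ± 20.2 CPM in Sham plasma (SD, n = 2 each). Its log2 fold change was −1.03 (standard error 0.39, −1.88 to −0.18), with an adjusted p of 0.0668 from edgeR and of 0.0197 from DESeq2, which called 16.6% of all tested miRNAs lower, so that its call depends on the tool. Of the other 4 minor arms, miR-92a-1-5p had the largest positive value, 29 and 31 UMIs in AMI plasma versus 17 and 6 in Sham plasma (log2 fold change 0.94 ± 0.47 SE, edgeR adjusted p = 0.157). With edgeR, 0 of the 5 minor arms passed, beside 27.5% of all tested miRNAs, and 1 had an unadjusted p under 0.05, beside 39.2%. Their median log2 fold change was −0.43. With DESeq2, 1 of 5 passed.

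**Figure D4:**
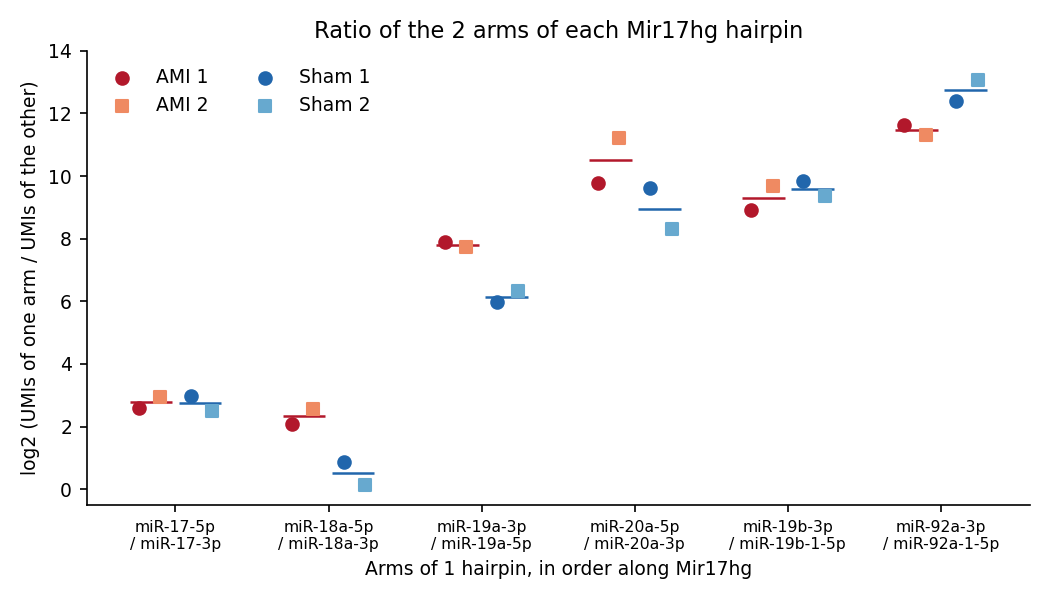
Log2 ratio of the UMIs of the more abundant arm to those of the other arm for the 6 hairpins of Mir17hg, in genome order. For Mir19b-1 and Mir92-1 the more abundant arm also sums the copy on the X chromosome. Points are libraries and bars are group means (n = 2 each). Mir17 overlaps between the groups, and Mir18 lies at 4.25 and 5.90 times in AMI against 1.82 and 1.11 times in Sham on the linear scale, while the hairpins further right rest on 6 to 31 UMIs of the minor arm.

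The minor arms also bear on the members with a second locus, since they differ between loci. From the chromosome 14 locus, miR-19b-1-5p had 25 and 17 UMIs in the AMI pair, with 12 and 12 in the Sham pair. From the X chromosome, miR-19b-2-5p had 7 and 0 UMIs in AMI plasma versus 0 and 12 in Sham plasma, and it did not pass the filter on low counts. Both loci thus gave counts, and how the 7870 to 14047 UMIs of miR-19b-3p per library divide between them cannot be told apart. The 0 values are no measured absence. When AMI 2 was set beside Sham 1, or AMI 1 beside Sham 2, no entry had a larger count of 1 to 9, and miR-19b-2-5p stood at 0 in AMI 2 and Sham 1 alike.

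Most molecules in plasma with the miR-17 and miR-92 seeds did not come from Mir17hg. Of the 921 entries, 783 could be given a RefSeq sequence, and 6 of these carry the seed AAAGUGC. The members miR-17-5p and miR-20a-5p made up 8.98% (95% Wilson interval 8.86 to 9.11%) and 8.04% (7.94 to 8.15%) of the UMIs with this seed in AMI 1 and AMI 2. In Sham 1 and Sham 2 they made up 11.6% (11.5 to 11.8%) and 6.96% (6.76 to 7.17%). The seed was carried mainly by miR-93-5p of the miR-106b-25 cluster on chromosome 5, with 177208 and 237203 UMIs in AMI plasma versus 115896 and 55338 in Sham plasma. The sequences are shown for comparison, with the seed in capitals.
miR-20a-5p: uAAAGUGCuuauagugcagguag
miR-93-5p: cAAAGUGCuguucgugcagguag
For the seed AUUGCAC, with 5 entries, miR-92a-3p made up 30.8% (30.7 to 31.0%) and 20.9% (20.8 to 21.1%) in the AMI libraries and 36.6% (36.4 to 36.8%) and 39.7% (39.4 to 40.0%) in the Sham libraries. Most of the rest was miR-25-3p, also of the miR-106b-25 cluster, with 206467 and 297971 UMIs in AMI plasma versus 157875 and 77268 in Sham plasma. The share of miR-92a-3p was lower in AMI plasma without overlap, where 72.2% of the ratios of all pairs of abundant miRNAs did not overlap.

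The other 3 seeds were carried mainly or, among the matched entries, wholly by members. miR-18a-5p made up 97.3% and 97.5% of the UMIs with the seed AAGGUGC in AMI plasma versus 96.1% and 94.6% in Sham plasma, against its paralog miR-18b-5p. The seed GUGCAAA was carried by miR-19a-3p and miR-19b-3p alone among the matched entries, and CUGCAGU by miR-17-3p alone. Within the miR-19 group, miR-19a-3p made up 17.8% and 17.4% in the AMI pair, with 13.7% and 6.72% in the Sham pair. All of these seeds together hold 7 members, 3 products of the miR-106b-25 cluster, 4 of the miR-106a-363 cluster, and miR-32-5p and miR-92b-3p from elsewhere.

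The paralogous clusters, which arose from the same ancestral cluster, were compared with Mir17hg because they share these seeds. Of the 6 products of miR-106b-25 tested, 1 passed, miR-93-3p, which was higher in AMI plasma, beside 14.8% of all tested miRNAs that were higher. It had 1265 and 1131 UMIs in the AMI pair, with 470 and 211 in the Sham pair, at a log2 fold change of 1.40 (standard error 0.40) and an edgeR adjusted p of 0.0234. Its adjusted p was 0.202 in the fit that left out AMI 1 and 0.100 in the one that left out AMI 2. The guide arms miR-93-5p and miR-25-3p stood at log2 fold changes of 0.85 (adjusted p = 0.135) and 0.67 (0.235), and miR-106b-3p at −0.53 (0.287), without passing. The median of the 6 was 0.58, and it was 1.02 without Sham 1 and 0.22 without Sham 2. That of the 7 members of miR-17-92 was 0.06, and it was 0.83 and −0.07 in the same order. The values of both clusters thus depended on which Sham library was kept.

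Of the 10 products listed for miR-106a-363, 6 were found among the entries and 5 passed the filter. Here 1 of 5 passed the test, miR-363-3p, which was lower in AMI plasma, beside 12.7% of all tested miRNAs that were lower. It had 41 and 37 UMIs in AMI plasma versus 126 and 61 in Sham plasma, with a log2 fold change of −1.68 (standard error 0.40) and an edgeR adjusted p of 0.0104. The adjusted p was 0.0624 without AMI 1 and 0.109 without AMI 2. The median of the 5 was −0.42. No test compares the clusters with each other, and miR-19b-3p and miR-92a-3p are products of 2 of them.

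**Figure D5:**
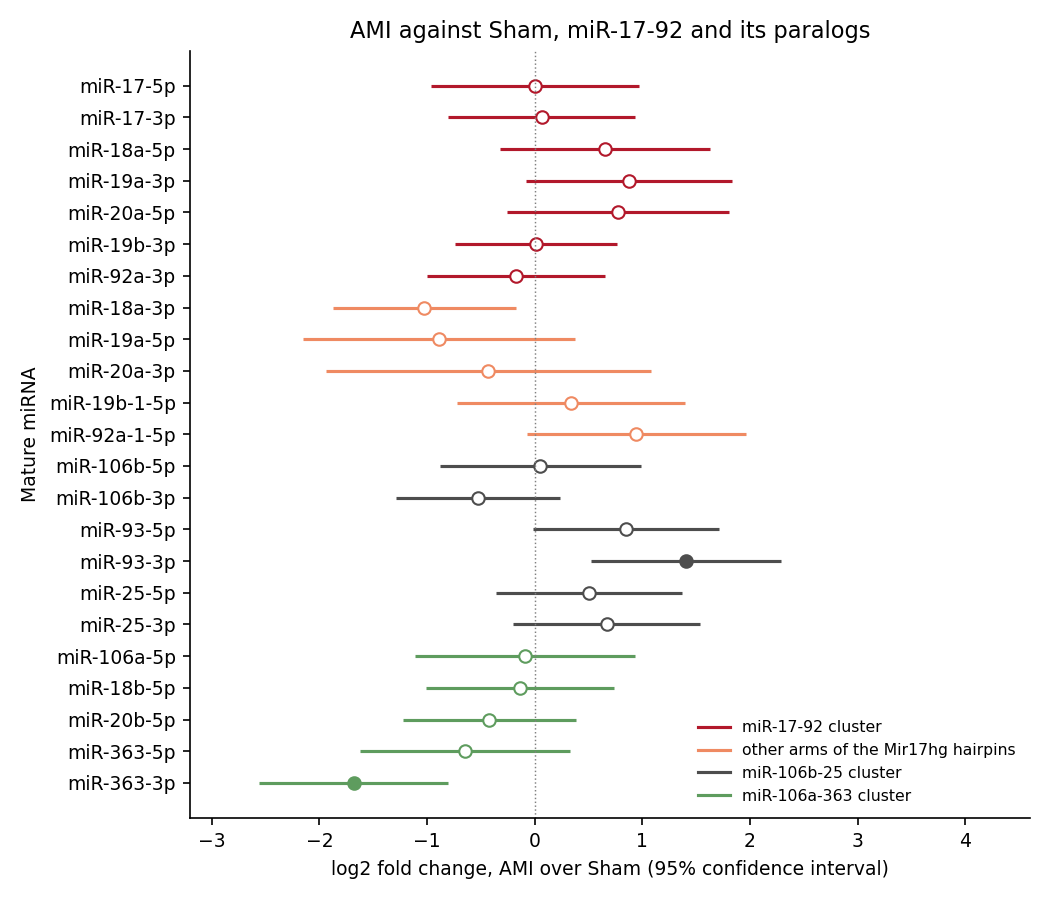
Log2 fold change, AMI over Sham, with its 95% confidence interval from edgeR, for the 7 members, the other arms of the same hairpins and the tested products of the paralogous clusters. Filled points passed an adjusted p of 0.05, which holds for miR-93-3p (1.40) and miR-363-3p (−1.68) and for none of the 7 members.

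Closely similar paralogs were set against the members within each library, since reads with an error could be counted under the wrong name. miR-106a-5p differs from miR-17-5p by the substitution U10A alone, and miR-17-5p was at 41.6 and 36.4 times its UMIs in the AMI pair, with 35.2 and 40.7 times in the Sham pair. This ratio was nearly constant, and how mismatched reads were assigned is not given in the sources used here, so the 34 to 131 UMIs of miR-106a-5p per library are uncertain. miR-20b-5p differs from miR-20a-5p by U1C and U10C. miR-20a-5p was at 58.9 and 56.6 times its UMIs in AMI plasma versus 31.5 and 15.8 times in Sham plasma. miR-18b-5p differs from miR-18a-5p, written from the member, by A18U and A20U. Here miR-18a-5p was at 35.7 and 39.3 times its paralog in AMI plasma versus 24.3 and 17.5 times in Sham plasma. Both of these ratios to a paralog on the X chromosome were higher in both AMI libraries. Of all pairs of miRNAs with at least 100 UMIs in every library, 72.2% did not overlap. miR-18b-5p had only 45 and 43 UMIs in the AMI pair, with 50 and 22 in the Sham pair. The unknown assignment of mismatched reads applies to these paralogs as well. The ratio of miR-17-5p to its own X-linked paralog overlapped between the groups.

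Outside these clusters, the miRNAs whose levels followed the cluster most closely were sought over the 4 libraries. The measure was the SD of the log2 ratio to the geometric mean of the 7 members, over 268 miRNAs with at least 100 UMIs in every library. The lowest values belonged to miR-33-5p (0.06), miR-674-5p (0.10), miR-486b-5p (0.12), miR-486b-3p (0.13) and miR-421-3p (0.15), where the median was 0.72. miR-33-5p is encoded in an intron of Srebf2, a regulator of cholesterol synthesis, and miR-486b in red blood cells comes from the Ank1 locus. miR-33-5p had 442 and 502 UMIs in the AMI pair, with 430 and 156 in the Sham pair. Like most members, it was lowest in Sham 2. Each of the 5 stayed without a call, at log2 fold changes of 0.19 to 0.52. They were chosen for following the cluster in these same libraries, so neither this nor a low level in Sham 2 is a further result. The members' own SDs to this mean were 0.19 for miR-17-3p to 0.43 for miR-19b-3p. These names rest on 4 libraries, since without AMI 1, AMI 2, Sham 1 or Sham 2 in turn, 3, 2, 1 and 0 of the 5 were again among the closest 5.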

How the data were processed

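Small RNA of mouse plasma was sequenced in 2 AMI and 2 Sham libraries made with a kit that adds UMIs, with the mice described as in the study's methods. For each miRNA and piRNA entry the authors supplied whole-number counts of UMIs and of reads, without normalization. The submitters' processing notes name bcl2fastq 2.18.0.12 and the build mm10, which is GRCm38. No aligner, UMI tool or miRNA annotation is named in those sources. A heading row with no counts was left out.

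UMI counts of the 921 miRNA entries were filtered (filterByExpr by group, 772 kept), scaled by TMM and tested with the robust quasi-likelihood test of edgeR 4.0.16 in R 4.3.3 (two-sided, group as the only term, Benjamini-Hochberg adjustment over the 772). Standard errors and intervals derive from the test statistic. Ratios, shares and intervals were computed in Python 3.11.15 (Wilson for shares, Poisson for counts). Sequences came from RefSeq (GRCm38.p6) and positions from GENCODE M21, where the 6 hairpins have the same coordinates. The fit was tested on simulated counts.

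The members, lists, tests and alternatives were chosen with earlier results of these data known. The text names the 7 members, the other arms of their hairpins, products of the paralogous clusters, the 6 reference miRNAs where needed, and the 5 miRNAs closest to the cluster. The alternatives were DESeq2 1.42.0, library size, RLE or reference scaling, other filters, read counts, piRNA entries included, replicate blocks and leaving out each library.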

Additional observations from a re-analysis of the deposited data

How the results depend on the processing

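No member of the cluster passed the test under any of the 15 alternatives other than the run without Sham 1. Leaving out each library in turn gave 0 to 4 of the 7 members and 79 to 305 of all miRNAs (79 without AMI 1, 95 without AMI 2), where all 4 libraries gave 212. Members with values near 0 changed sign. miR-17-5p was at −0.051 with DESeq2, −0.22 by library size, −0.051 by RLE scaling, −0.022 without a filter and −0.0073 on read counts, and at −0.55 to 0.83 with each library left out. miR-19b-3p was at −0.052 with DESeq2, −0.26 by library size, −0.052 by RLE scaling and −0.019 without a filter, and at −0.070 to 0.070 with each library left out. miR-17-3p was at −0.17 by library size and at −0.34 to 0.57 with each library left out, and miR-92a-3p at 0.0072 when scaled by the 6 reference miRNAs (which include miR-19b-3p) and at −0.42 to 0.072 with each library left out. Scaling by library size moved the median of all tested miRNAs to −0.23 and by the references to 0.21, against 0.04 with TMM, and the causes of the other changes were not tested. Called miRNAs were 86 higher and 147 lower by library size, and 129 higher and 74 lower by the references, against 114 higher and 98 lower. miR-18a-3p passed with DESeq2 (adjusted p = 0.0197), library size (0.0291), RLE scaling (0.0395), with no filter (0.0399) and piRNA entries included (0.0450), and without Sham 2 (0.000442), at log2 fold changes of −1.31 to −0.73 with each library left out.

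The libraries share only a number within the labels. When AMI and Sham libraries of the same number were compared, their departures from the group means correlated at −0.37 over the 772 miRNAs (0.010 over the 750 with no 0 shared by a crossed pair), across miRNAs, which are not independent replicates. With the replicate number as a block, 172 miRNAs and 0 members passed, and with the crossed pairing, chosen after seeing the data, 249 and 0. The ratios of the members to miR-19b-3p and the span moved by less than the spread between libraries on read counts or with a pseudocount of 1 UMI. With 2 libraries per group the members' standard errors were 0.34 to 0.47 on the log2 scale, and their lowest count was 244 UMIs.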
